A study of Mus musculus with 12 samples.

Results

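The genes described here belong to the BCL2 family, which sets whether a lymphocyte lives or dies. A list of 10 family members was taken by gene name: the survival genes Bcl2, Bcl2l1 and Mcl1, the effectors Bak1 and Bax, and the BH3-only genes Bcl2l11, Bid, Bad, Bbc3 and Pmaip1. Of these, 9 had a probe set that carries 1 gene symbol, out of 19937 genes measured in this way. Bax was not analysed here. Each of the 9 had 1 probe set, so no choice between probe sets was made for them, and all 9 had a mean above the background level of 5.21 log2, the 95th percentile of 1027 olfactory receptor genes. The lowest was Bbc3, for which small changes are compressed.

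The data comprise 12 Affymetrix mouse gene arrays in 4 labelled groups of 3, with total RNA from lymphocytes of the spleen of C57Bl/6 x FVB mice. The labels call the groups activated B (cells kept for 4 days with aCD40 and IL4), resting B (CD43 negative cells on day 0), activated T (cells kept for 4 days with aCD3, aCD28 and IL2) and resting T (B220 negative cells on day 0). Cells were enriched by magnetic sorting. By the study's methods resting B cells were what remained after depletion with antibodies to TER-119, Gr-1, CD11b, CD138, CD43 and CD5, and the T cells were B220 negative by label. A gate for the absence of surface proteins leaves any other cell that lacks them. The age of the mice, and whether replicate arrays stand for separate animals, is not given in the sources used here. In each group Xist, expressed in females, was above 10.6 log2 on some arrays (replicates 3, 5 and 6) and below 4.6 on the others, where the Y-linked Eif2s3y was above 8.3, so that every group held RNA of more than 1 animal. The high arrays were replicate 3 alone in the labelled B groups and replicates 5 and 6 in the labelled T groups. Sex was thus not balanced between labelled B and labelled T, and its part in their differences was not tested. P-values cover the spread among these arrays, of which the technical part is unknown. Values are log2 intensities made with RMA, with array medians of 5.50 to 5.68.

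The lineage genes went against the labels, and the groups are therefore called by their label throughout. Whether titles or values were exchanged between samples was not tested. The mean level of 10 T cell markers was 9.42 to 9.56 on the arrays labelled activated B and 9.79 to 9.89 on those labelled resting B, against 5.45 to 6.23 for activated T and 5.14 to 5.58 for resting T. Conversely, 9 B cell markers averaged 4.77 to 5.14 on the arrays labelled activated B and 7.13 to 8.48 on those labelled resting B, against 11.27 to 11.43 for activated T and 9.21 to 9.61 for resting T. On the arrays labelled activated B, 5 of the 9 B cell markers were at or below the background level, among them Ms4a1, which encodes CD20, at 4.46 ± 0.32 (SD, n = 3). The labelled resting B arrays held B cell genes above background as well, most of all replicate 2. The mean of 7 markers of dividing cells was 9.99 to 10.03 for labelled activated B and 5.73 to 6.17 for labelled resting B, but 5.47 to 6.13 for labelled activated T and 9.53 to 9.61 for labelled resting T. Every direction given here is the direction between labels. As these are bulk samples, fewer cells of a type and less RNA per cell cannot be told apart.

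Proteins of the BCL2 family meet at the outer membrane of the mitochondrion. The survival proteins BCL2, BCL-XL (from Bcl2l1) and MCL1 hold back the effectors BAX and BAK, which otherwise form pores through which cytochrome c leaves and caspases are switched on. The BH3-only proteins carry the stress and death signals, by binding the survival proteins, and in the case of BIM (from Bcl2l11) and BID also by activating the effectors directly. Naive lymphocytes are known to depend on BCL2 and MCL1, and stimulated lymphocytes are known to raise BCL-XL. Since these proteins are also set by splicing, phosphorylation and degradation, the values below are of transcripts only.

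Bcl2l1, Bak1 and Mcl1 were the members whose difference between activated and resting depended on the labelled cell type. Bcl2l1 and Bak1 were higher in labelled activated B than in labelled resting B, but lower in labelled activated T than in labelled resting T. Mcl1 did the opposite in both. Bcl2 was higher in the arrays labelled activated for both labelled cell types and, at an equal activation label, higher in the arrays labelled B. Bid separated the labelled cell types by about 1 log2 unit without a call between activated and resting, and Bad and Bbc3 stayed within small differences throughout.

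**Figure D1:**
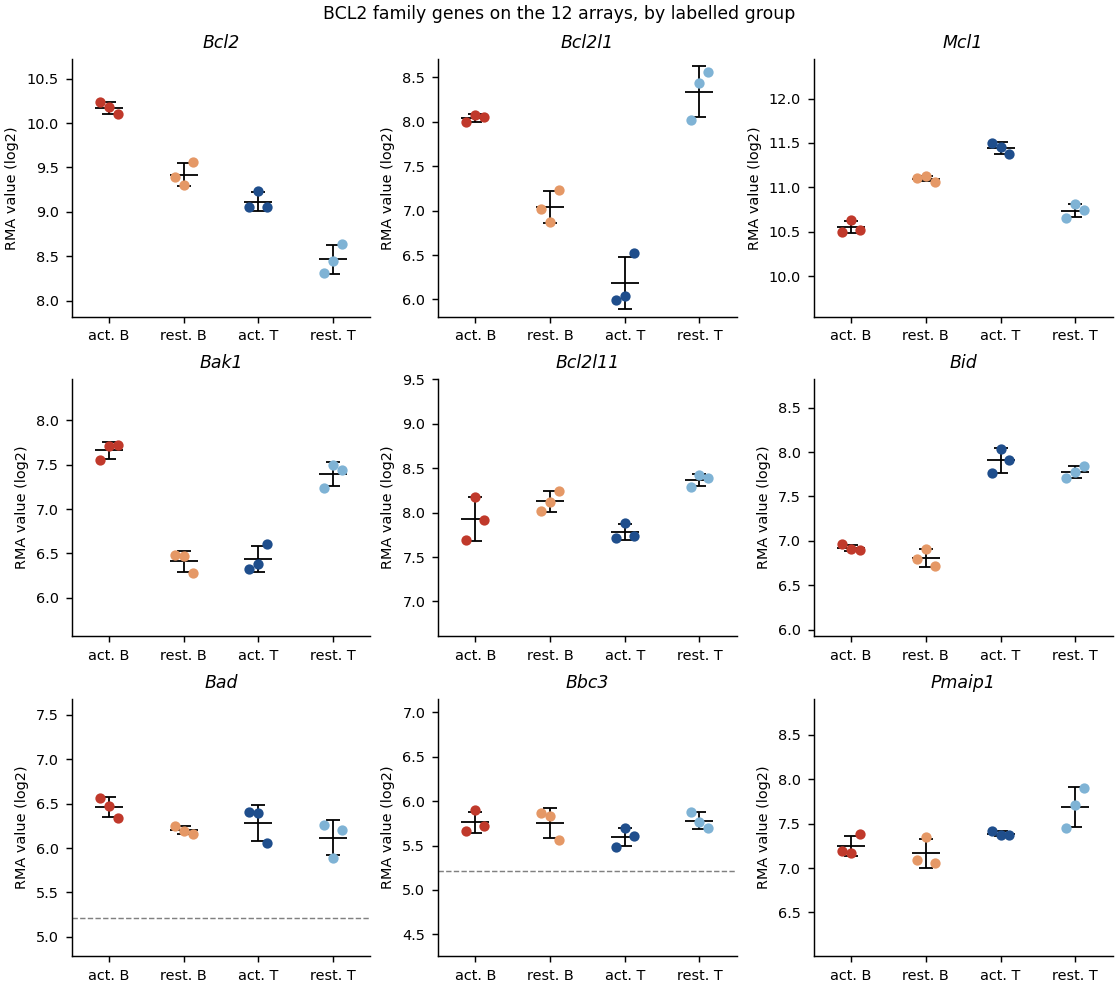
Log2 RMA values (y axis) of the 9 measured BCL2 family genes on each of 12 arrays, by labelled group (x axis; act. = activated, rest. = resting). Points are arrays, bars are the mean and SD of 3 arrays, and the dashed line is the background level of 5.21; all panels span the same number of log2 units. Bcl2l1 and Bak1 are high in labelled activated B and labelled resting T, and Mcl1 is low in the same groups.

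Bcl2, the founding survival gene of the family, had 10.23, 10.18 and 10.10 log2 on the arrays labelled activated B, against 9.39, 9.31 and 9.56 on those labelled resting B. It had 9.05, 9.24 and 9.05 on the arrays labelled activated T, against 8.32, 8.44 and 8.64 on those labelled resting T. No 2 of the 4 groups overlapped, and the levels ran in the order activated B, resting B, activated T, resting T. The rise was 0.75 ± 0.10 (log2 fold change ± SE, 1.68-fold, adjusted p = 1.9e-05 from limma) in the labelled B arrays and 0.65 ± 0.10 (1.57-fold, adjusted p = 9.4e-05) in the labelled T arrays. The difference between these changes was 0.10, with a 95% interval of -0.21 to 0.42 (adjusted p = 0.637). Labelled activated B exceeded labelled activated T by 1.06, and labelled resting B exceeded labelled resting T by 0.96 (adjusted p = 2.7e-07 and 1.2e-06 from limma). Of the neighbours in the order of levels, labelled resting B and labelled activated T differed by 0.31, which was not called (adjusted p = 0.0517), but was called with quantile normalization (adjusted p = 0.0216), with the filter on dim genes (0.0298), with an intensity trend (0.0207), and without resting B replicate 2 (0.0445) or activated T replicate 5 (0.0425). Beside this, the T cell markers were high on all arrays labelled B, and their part in the level of Bcl2 was not tested.

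Bcl2l1, which encodes BCL-XL, had 8.0, 8.08 and 8.05 log2 on the arrays labelled activated B, against 7.02, 6.88 and 7.23 on those labelled resting B. It had 5.99, 6.04 and 6.52 on the arrays labelled activated T, against 8.02, 8.44 and 8.56 on those labelled resting T. The activated B arrays were all above the resting B arrays, and the activated T arrays were all below the resting T arrays. The log2 fold change was 1.0 ± 0.15 (SE, 2.0-fold higher, adjusted p = 4.5e-05) in labelled B and -2.16 ± 0.15 (4.45-fold lower, adjusted p = 7.2e-09) in labelled T, and the difference between these changes was 3.16 ± 0.22 (adjusted p = 2.5e-09, all from limma). The probe set does not separate the splice forms of the gene, which are known to have opposite effects on survival. Labelled activated B and labelled resting T were neighbours at the top of the order and overlapped, with a difference of -0.30 and a 95% interval of -0.62 to 0.03 (adjusted p = 0.206). Without the lowest resting T array, replicate 4, this difference was -0.46 and was called (adjusted p = 0.0410). The other neighbours, labelled resting B above labelled activated T, differed by 0.86 (adjusted p = 4.6e-04).

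Bak1, the effector that resides on mitochondria, had 7.55, 7.71 and 7.72 log2 on the arrays labelled activated B, against 6.49, 6.47 and 6.28 on those labelled resting B. It had 6.33, 6.38 and 6.61 on the arrays labelled activated T, against 7.24, 7.50 and 7.44 on those labelled resting T. Thus a death effector was high on the same arrays as the survival gene Bcl2l1. The log2 fold change was 1.25 ± 0.11 (SE, 2.38-fold higher, adjusted p = 6.2e-08) in labelled B and -0.95 ± 0.11 (1.94-fold lower, adjusted p = 1.7e-06) in labelled T, a difference of 2.20 ± 0.15 (adjusted p = 2.5e-09, limma). Labelled resting B and labelled activated T overlapped, with a difference of -0.03 and a 95% interval of -0.26 to 0.20. Labelled activated B and labelled resting T did not overlap, but the difference of 0.27 was not called (adjusted p = 0.0850). With array weights it was 0.32 and was called (adjusted p = 0.0251).

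Mcl1, a survival gene whose protein is known to turn over within a short time, ran the other way. It had 10.50, 10.63 and 10.52 log2 on the arrays labelled activated B, against 11.10, 11.13 and 11.06 on those labelled resting B. It had 11.50, 11.46 and 11.37 on those labelled activated T, against 10.66, 10.81 and 10.75 on those labelled resting T. All arrays of the labelled activated B and resting T groups lay below all arrays of the other groups. Mcl1 fell by 0.55 on the log2 scale in labelled activated B (1.46-fold lower, SE 0.09, adjusted p = 6.1e-05) and rose by 0.71 in labelled activated T (1.63-fold higher, SE 0.09, adjusted p = 4.4e-06), a difference of -1.25 ± 0.12 (adjusted p = 1.7e-07, limma). These changes were small but the arrays agreed closely: the pooled SD within groups was 0.063 log2 for Mcl1, against 0.225 for Bcl2l1 and a median of 0.128 over 12170 genes above background. Labelled resting B was lower than labelled activated T by 0.34 (adjusted p = 0.00764), and labelled activated B differed from labelled resting T by -0.18 (adjusted p = 0.154; with quantile normalization -0.26, adjusted p = 0.0225).

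**Figure D2:**
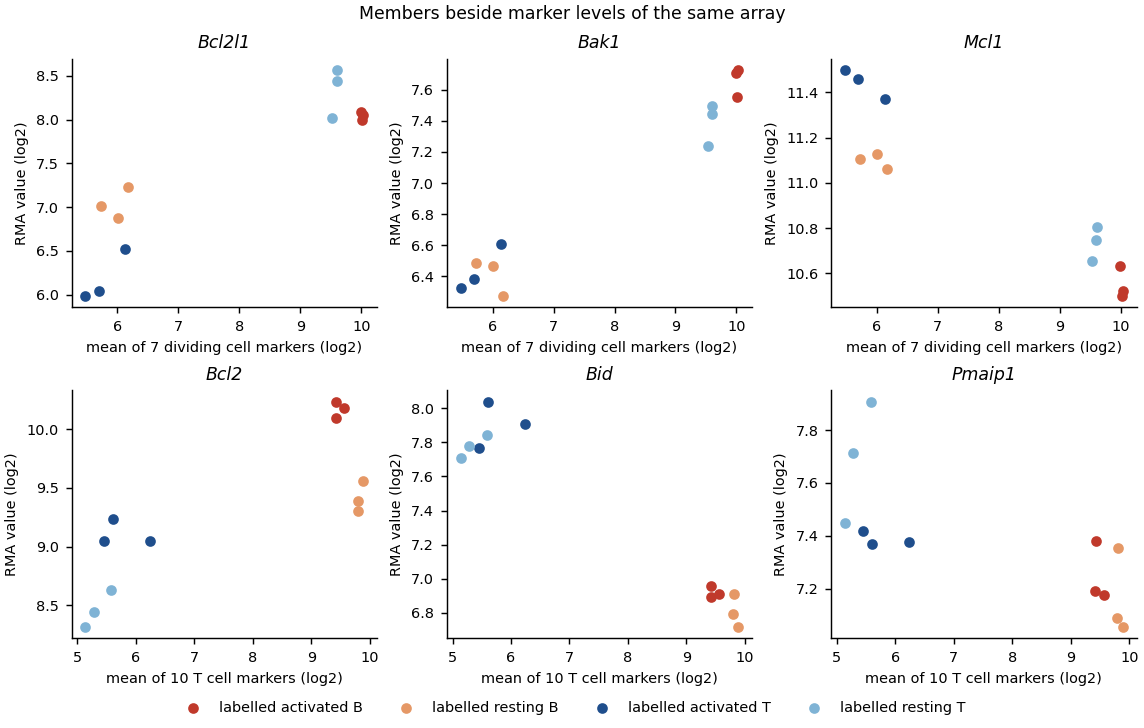
Log2 RMA values of 6 members (y axis) against marker levels of the same array (x axis, mean log2 value over the list), for the 12 arrays coloured by labelled group. In the upper row (7 markers of dividing cells) Bcl2l1 and Bak1 are high and Mcl1 is low on the 6 arrays with marker levels of at least 9.53; in the lower row (10 T cell markers) the arrays labelled B lie at 9.42 or more, where Bcl2 is high and Bid is low.

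The groups in which Bcl2l1 and Bak1 were high and Mcl1 was low were those with dividing cell markers at 9.53 or more on every array. All 7 of these markers were higher in labelled activated B than in labelled resting B, and all 7 were lower in labelled activated T than in labelled resting T. Other markers moved as well: of 10 myeloid and dendritic cell markers, 7 were lower in labelled activated B than in labelled resting B (list mean 4.68 to 4.78 against 6.33 to 6.89), and 5 were higher in labelled activated T than in labelled resting T (6.12 to 6.45 against 5.54 to 5.72). All 9 B cell markers were lower in labelled activated B than in labelled resting B, and 8 were higher in labelled activated T than in labelled resting T. Of 5 natural killer cell markers, 1 was higher and 4 were lower in labelled activated B than in labelled resting B (6.30 to 6.79 against 7.88 to 8.64), and 3 were higher and 1 lower in labelled activated T than in labelled resting T (5.78 to 7.19 against 5.41 to 6.39). Of 5 plasma cell markers, 3 were higher and 1 lower in labelled activated B than in labelled resting B, and 4 were lower in labelled activated T than in labelled resting T. They did not move as 1 group in labelled B: Jchain, the joining chain of secreted antibodies, averaged 4.30, below background, in labelled activated B and 10.97 in labelled resting B, and the factor Irf4 averaged 9.63 in labelled activated B and 6.63 in labelled resting B. Of 6 erythroid and platelet markers, 3 were lower in labelled activated B than in labelled resting B (list mean 4.97 to 5.17 against 5.35 to 5.49), and 2 were higher in labelled activated T than in labelled resting T (5.25 to 5.49 against 4.92 to 5.11). Of these 6 genes, 2 had a mean above background in labelled activated B, 4 in labelled resting B, 3 in labelled activated T and 2 in labelled resting T. Of the 10 myeloid and dendritic cell markers, 3, 7, 7 and 6 were above it in the same order of groups. The list means of both thus include unmeasured levels. The part of cells with any of these markers in the values of Bcl2l1, Bak1 and Mcl1 was not tested.

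The promoters of these genes are shown because Bcl2l1 and Bak1 moved together, Mcl1 moved against them and Bcl2 followed neither. Each line holds the 250 bases before a start site of the RefSeq annotation (GRCm38.p6), 5′ to 3′ on the strand of the gene, at chr2:152830718-152830967 for Bcl2l1 (- strand, of its 3 start sites the one with E2F letters), chr17:27028628-27028877 for Bak1 (- strand), chr3:95658471-95658720 for Mcl1 (+ strand) and chr1:106714291-106714540 for Bcl2 (- strand). Capitals mark matches on either strand to the letters TTTNNCGC (E2F) or GGGCGG (GC box), as far as they occur.
Bcl2l1: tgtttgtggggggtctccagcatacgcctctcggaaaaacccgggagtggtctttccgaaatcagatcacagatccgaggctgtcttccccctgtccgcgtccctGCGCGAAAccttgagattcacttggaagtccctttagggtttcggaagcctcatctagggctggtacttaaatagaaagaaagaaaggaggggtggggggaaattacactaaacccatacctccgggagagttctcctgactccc
Bak1: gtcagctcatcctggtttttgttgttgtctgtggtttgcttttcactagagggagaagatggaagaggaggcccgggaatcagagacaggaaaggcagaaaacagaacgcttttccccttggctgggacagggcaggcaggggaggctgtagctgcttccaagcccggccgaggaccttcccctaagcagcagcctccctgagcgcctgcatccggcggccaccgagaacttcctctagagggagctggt
Mcl1: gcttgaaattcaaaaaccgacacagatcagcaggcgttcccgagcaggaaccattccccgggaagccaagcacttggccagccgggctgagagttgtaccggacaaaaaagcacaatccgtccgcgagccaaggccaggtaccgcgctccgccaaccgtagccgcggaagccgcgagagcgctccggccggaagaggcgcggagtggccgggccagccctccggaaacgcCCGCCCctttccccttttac
Bcl2: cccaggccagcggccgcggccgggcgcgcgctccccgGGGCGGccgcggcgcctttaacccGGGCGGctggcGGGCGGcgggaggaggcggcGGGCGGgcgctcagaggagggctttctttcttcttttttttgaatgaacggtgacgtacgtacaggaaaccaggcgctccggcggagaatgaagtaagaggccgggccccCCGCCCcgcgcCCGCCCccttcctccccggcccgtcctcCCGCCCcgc

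Bases G and C made up 53.2% of the Bcl2l1 window, 58.4% of the Bak1 window, 64.4% of the Mcl1 window and 74.8% of the Bcl2 window, against a median of 52.4% over 32851 windows. The Bcl2l1 window held the E2F letters 1 time, which 4.28% of all windows contain, and the other 2 start sites of Bcl2l1 did not. GC boxes, found in 32.74% of all windows, numbered 7 in the Bcl2 window, 1 in the Mcl1 window and 0 in those of Bcl2l1 and Bak1. Over 14 windows of 8 members, no match was found to the STAT letters TTCNNNGAA (7.02% of all windows) or to the decamer motif of p53 (7.13%). Pmaip1, on chromosome 18, was left out of this search, so nothing is shown for its promoter. The CCAAT letters, in 33.85% of all windows, were in 4 member windows, none of them among the windows shown. In the windows of Bbc3 some GC boxes overlapped one another, and each was counted. These are matches of letters within this window, and they say nothing of binding.

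Among the BH3-only genes, Bcl2l11, which encodes BIM, had lower means in the activated arrays of both labels, a difference that was called for T. It had 7.69, 8.18 and 7.91 log2 on the arrays labelled activated B, against 8.01, 8.12 and 8.25 on those labelled resting B. It had 7.71, 7.89 and 7.74 on those labelled activated T, against 8.29, 8.42 and 8.39 on those labelled resting T. The T groups were apart and the B groups overlapped through replicate 2 of labelled activated B. The log2 fold change was -0.59 ± 0.12 (SE, 1.5-fold lower, adjusted p = 6.4e-04) in labelled T and -0.20 ± 0.12 (adjusted p = 0.210) in labelled B, and the difference of 0.38 between them was not called (95% interval 0.04 to 0.73, adjusted p = 0.0718, limma). It was called with the filter on dim genes (adjusted p = 0.0469), with an intensity trend (0.0474) and without activated B replicate 1 (0.50, adjusted p = 0.0147), and the change in labelled B was called with quantile normalization (-0.33, adjusted p = 0.0203), with centring on the 75th percentile (-0.30, adjusted p = 0.0415) and without replicate 2 of labelled activated B (-0.33, adjusted p = 0.0342). No neighbours in the order of levels of Bcl2l11 differed by a called amount.

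Pmaip1, which encodes NOXA, a partner of MCL1, had 7.19, 7.18 and 7.38 log2 on the arrays labelled activated B, against 7.09, 7.36 and 7.06 on those labelled resting B. It had 7.42, 7.37 and 7.38 on those labelled activated T, against 7.45, 7.71 and 7.91 on those labelled resting T. The labelled resting T arrays were the highest and the most spread. The difference between activated and resting was 0.08 in labelled B (adjusted p = 0.654) and -0.30 in labelled T (adjusted p = 0.0601), and the difference in labelled T passed the test with the filter on dim genes (adjusted p = 0.0376), with an intensity trend (0.0442) and without resting T replicate 4 (-0.42, adjusted p = 0.0107). The 2 changes differed by 0.38 (adjusted p = 0.0759), which was called without resting B replicate 2 (0.48, adjusted p = 0.0313) or resting T replicate 4 (0.50, adjusted p = 0.0162). Labelled resting B was lower than labelled resting T by 0.52 (1.44-fold, adjusted p = 0.00179 from limma).

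Bid, which is cut by caspase 8 to link death receptors to mitochondria, followed the labelled cell type and little else. It had 6.96, 6.91 and 6.89 log2 in labelled activated B, against 7.77, 8.04 and 7.91 in labelled activated T. It had 6.79, 6.91 and 6.72 in labelled resting B, against 7.71, 7.78 and 7.84 in labelled resting T. Every array labelled B lay below every array labelled T. The difference was -0.98 ± 0.09 (SE, 1.98-fold lower, adjusted p = 1.7e-07) in the activated groups and -0.97 ± 0.09 (1.96-fold lower, adjusted p = 2.8e-07, limma) in the resting groups. Activated minus resting gave 0.11 in labelled B (95% interval -0.08 to 0.31) and 0.13 in labelled T (-0.07 to 0.33). As the T cell markers were high where Bid was low, the direction of Bid, like that of Bcl2, holds for the labels and was not tested for cell types.

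Bad and Bbc3 varied little. Bad, whose protein is held inactive by phosphorylation, had 6.57, 6.48 and 6.34 log2 in labelled activated B, against 6.25, 6.19 and 6.16 in labelled resting B, which did not overlap but were not called (0.26, adjusted p = 0.10 from limma, and 0.0467 with only these arrays in the fit). It had 6.41, 6.40 and 6.05 in labelled activated T, against 6.26, 5.89 and 6.20 in labelled resting T, which overlapped (0.17, adjusted p = 0.331). Bbc3, which encodes PUMA, a BH3-only protein known to be induced by p53, had 5.67, 5.90 and 5.72 in labelled activated B, against 5.87, 5.84 and 5.56 in labelled resting B. It had 5.49, 5.70 and 5.61 in labelled activated T, against 5.88, 5.76 and 5.70 in labelled resting T. None of the comparisons called Bbc3, and the 95% intervals of its activated minus resting differences were -0.22 to 0.23 in labelled B and -0.41 to 0.04 in labelled T. At a level so near the background, larger changes in transcript number could be compressed into these differences.

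**Figure D3:**
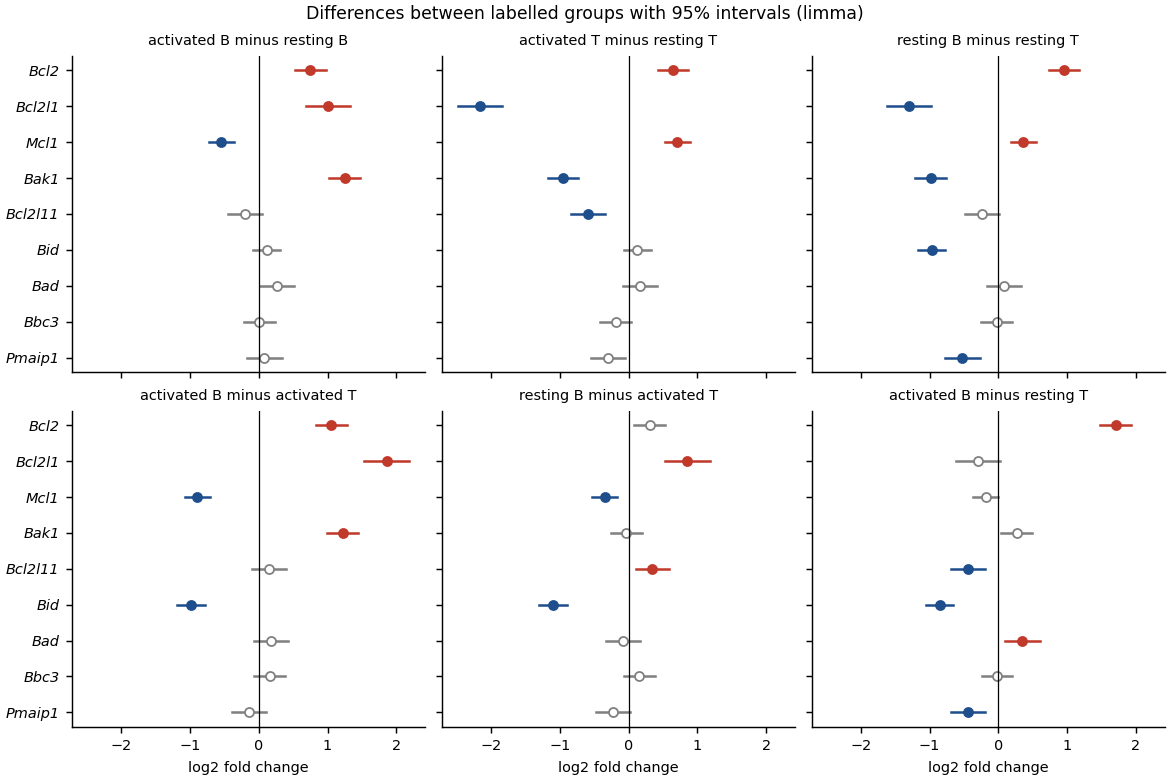
Log2 fold changes (x axis) of the 9 members between pairs of labelled groups, first group minus second, with 95% intervals from limma. Filled points passed an adjusted p of 0.05 over 19937 genes (red higher, blue lower in the first group) and open points did not; Bcl2l1, Bak1 and Mcl1 have opposite signs in the first and second panels.

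Counted over the members, labelled activated B against labelled resting B gave 3 of 9 higher and 1 lower, where 19.7% of all genes were called higher and 16.7% lower. The median change of the members was 0.115, against -0.016 for all genes. Labelled activated T against labelled resting T gave 2 of 9 higher and 3 lower (all genes: 15.9% and 17.8%), with a median of -0.184 against 0.017 for all genes. With arrays centred on the 75th percentile, the share of higher genes among all called was 41.9%, against 54.1% without it, for labelled B, and the median of all genes was then -0.117. The calls of Bcl2, Bcl2l1, Mcl1 and Bak1 in both comparisons were made under this and every other setting tried.

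For activation by label, the interaction called 2 of 9 members higher (Bcl2l1 and Bak1) and 1 lower (Mcl1), with 21.9% and 20.9% of all genes called in these directions. The median was 0.189 for the members and -0.035 for all genes. These counts are near the shares over all genes, so that an interaction is nothing particular to the family on these arrays. With the 75th percentile as the centre, the higher share of all calls was 38.1%, against 51.2%, and the median of all genes was -0.212. Of the members, 5 were called with the filter on dim genes, through Bcl2l11 and Pmaip1 (adjusted p = 0.0469 and 0.0499 from limma). With this filter 7827 of 12170 genes were called, against 8518 of 19937 without it.

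Between the labelled cell types, Bcl2, Bcl2l1 and Bak1 were higher and Mcl1 and Bid lower in labelled activated B than in labelled activated T (3 and 2 of 9 members, and 21.8% and 18.9% of all genes). Bcl2l1 differed by 1.86 (3.63-fold, adjusted p = 2.6e-08), Bak1 by 1.22 (2.33-fold, adjusted p = 5.4e-08) and Mcl1 by -0.89 (1.85-fold lower, adjusted p = 1.8e-07 from limma). The member median was 0.163, against -0.031 for all genes, and -0.150 for all genes after centring on the 75th percentile, where 39.2% of all calls were higher, against 53.5%. Bcl2 and Mcl1 were higher and Bcl2l1, Bak1, Bid and Pmaip1 lower in labelled resting B than in labelled resting T (2 and 4 of 9, and 16.1% and 19.0% of all genes). Here Bcl2l1 differed by -1.30, Bak1 by -0.98 and Mcl1 by 0.36 (adjusted p = 2.6e-06, 1.0e-06 and 0.00258). The member median was -0.239, against -0.003 for all genes. Between labelled B and T, Bcl2l1, Bak1 and Mcl1 thus differed in opposite directions in the groups labelled resting and in those labelled activated. Bcl2 and Bid kept 1 direction.

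Pairs that differ in both labels had fewer calls over all genes. Labelled resting B against labelled activated T called Bcl2l1 and Bcl2l11 higher and Mcl1 and Bid lower (2 and 2 of 9), where 9.68% of all genes were higher and 8.82% lower. Bid differed by -1.10 (adjusted p = 1.3e-07) and Bcl2l11 by 0.35 (adjusted p = 0.0467 from limma). The call of Bcl2l11 was lost with centring on the median (adjusted p = 0.0630) or on the 75th percentile (0.0528), and without any of resting B replicates 2 and 3 and activated T replicates 4, 5 and 6 (up to 0.180, without resting B replicate 3). Labelled activated B against labelled resting T called Bcl2 and Bad higher and Bcl2l11, Bid and Pmaip1 lower (2 and 3 of 9), where 13.0% of all genes were higher and 9.93% lower. Bcl2 differed by 1.70 (3.26-fold, adjusted p = 1.5e-09), its widest difference between labelled groups, and Bid by -0.86 (adjusted p = 2.2e-06). Bad differed by 0.35 (adjusted p = 0.0440), a call lost under 5 settings and without either of activated B replicates 1 and 2 or resting T replicate 5 (adjusted p = 0.160, 0.108 and 0.207). Bcl2l11 differed by -0.44 (adjusted p = 0.00966, and 0.0657 without activated B replicate 1) and Pmaip1 by -0.44 (adjusted p = 0.0108, and 0.0594 without resting T replicate 6). The 6 pairwise comparisons and the interaction share the same 12 arrays and are not independent of each other.

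**Figure D4:**
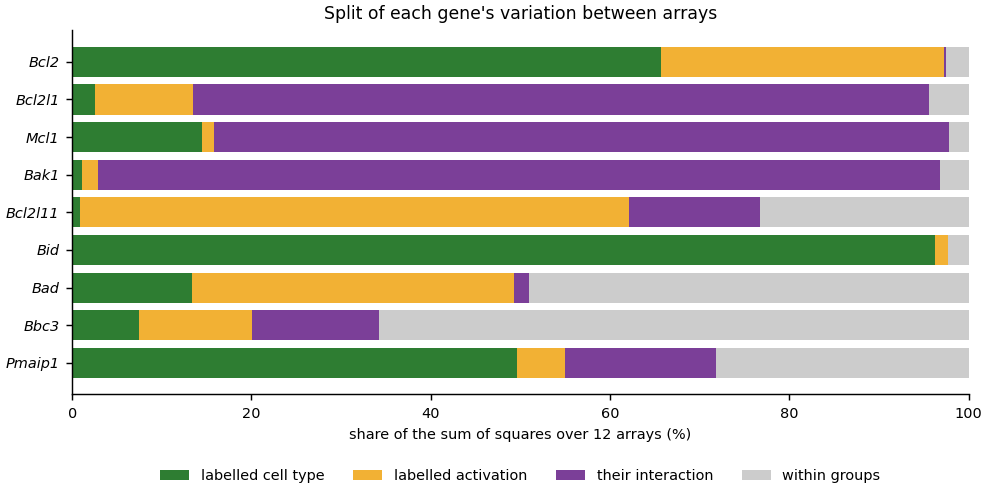
Share of each gene's sum of squares over 12 arrays (x axis, %) that lies between labelled cell types, between labelled activation states, in their interaction and within groups. Bid and Bcl2 vary mostly with the labelled cell type (96.2% and 65.6%), Bcl2l1, Mcl1 and Bak1 with the interaction (82.0%, 82.0% and 93.9%), and Bbc3 within groups (65.8%).

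A split of each gene's variation over the arrays showed how unlike the members were. The labelled cell type held 96.2% of the sum of squares of Bid and 65.6% of that of Bcl2, with 31.6% of Bcl2 in labelled activation. The interaction held 93.9% for Bak1, 82.0% for Bcl2l1 and 82.0% for Mcl1. Bcl2l11 was the member with the largest part in labelled activation (61.3%), and 23.3% lay within groups. For Pmaip1 the labelled cell type held 49.6%. Bad and Bbc3 had 49.0% and 65.8% within groups, against a median of 16.1% over genes above background. The median gene above background had 10.7% in the labelled cell type, 4.18% in labelled activation and 36.4% in the interaction.

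Genes that followed the pattern of a member most closely were found by the root mean square difference over the 12 arrays after each gene's own mean was taken off, among genes with a range at least 50% as wide. For Bcl2 they were Fam107b, Slain1 and Jak2 (0.133, 0.149 and 0.150 log2, of 5665 genes compared). For Bcl2l1 they were Oas3, Pim2 and Serpinb6b (0.216, 0.237 and 0.237, of 3563). Pim2, a kinase that phosphorylates BAD, had 9.73 ± 0.12 in labelled activated B and 8.30 ± 0.24 in labelled resting B, and 7.81 ± 0.24 in labelled activated T and 9.92 ± 0.10 in labelled resting T (SD, n = 3 each). For Mcl1 they were Zfp407, Cep120 and Arhgap30 (0.057, 0.068 and 0.074, of 14306), and for Bcl2l11 Nradd, Grhl1 and Snhg16 (0.109, 0.117 and 0.128, of 18069). Of these genes, Grhl1 was below the background level in all groups but labelled resting T, and Oas3 was below it in labelled activated T, so that their likeness rests in part on unmeasured levels. These distances describe likeness on these arrays and were not tested.

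Other genes of the pathway were counted in the same fits, and their counts are to be read against the shares of all genes called, which were 19.7% higher and 16.7% lower for labelled activated B against labelled resting B, and 15.9% and 17.8% for labelled activated T against labelled resting T. The median changes of all genes were -0.016 and 0.017. Of 13 further BCL2 family genes, 3 were higher and 0 lower in labelled activated B than in labelled resting B (median 0.020), and 1 was higher and 5 lower in labelled activated T than in labelled resting T (median -0.086). Bnip3, an atypical BH3-only gene known for mitophagy and for induction in low oxygen, had the widest change. Its level was 10.63 ± 0.07 in labelled activated B and 6.35 ± 0.18 in labelled resting B, and 6.86 ± 0.12 in labelled activated T and 10.56 ± 0.19 in labelled resting T (SD, n = 3 each). The log2 fold changes of 4.29 and -3.70 (adjusted p = 1.8e-13 and 1.0e-12 from limma) had the same signs as those of Bcl2l1 and Bak1. Its relative Bnip3l had a log2 fold change of -1.36 in labelled T and 0.02 in labelled B, and these differed by 1.38 (adjusted p = 8.7e-07). The survival gene Bcl2l2, which encodes BCL-W, changed by 0.31 in labelled B and -0.26 in labelled T (adjusted p = 0.0153 and 0.0415). Bcl2l14 was the third gene counted as higher in labelled B, at 5.01 in labelled activated B and 4.75 in labelled resting B, and as it was below the background level in all 4 groups its call is not a measured change of level. Bmf, a BH3-only gene, was higher in labelled activated T (0.86, adjusted p = 1.0e-04), with -0.36 in labelled B (adjusted p = 0.0574). Bcl2a1c, with -1.22 in labelled T, belongs to a set of near-identical copies, and its value is uncertain.

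**Figure D5:**
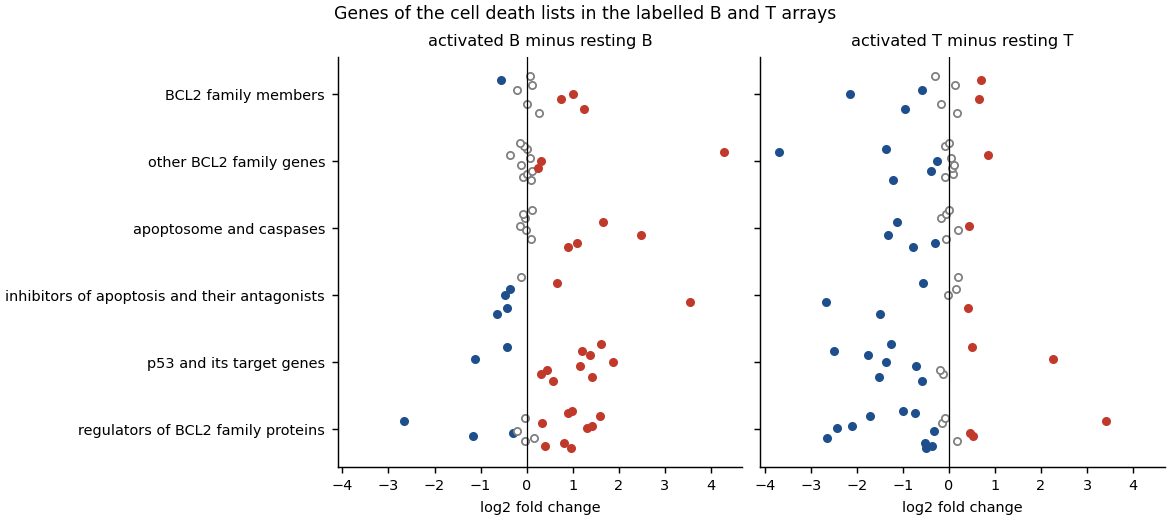
Log2 fold changes (x axis) of single genes of the BCL2 family and of 5 lists of related genes, for labelled activated B minus labelled resting B (left) and labelled activated T minus labelled resting T (right). Filled points passed an adjusted p of 0.05 in limma (red higher, blue lower in the activated arrays) and open points did not. The points of p53 target genes lie mostly right of 0 on the left panel (9 of 11 higher, and 19.7% of all genes). On the right panel they lie mostly left of 0 (7 of 11 lower, and 17.8% of all genes).

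Downstream of the mitochondrion, where the same shares of all genes apply (19.7% and 16.7%, and 15.9% and 17.8%), 4 of 10 genes of the apoptosome, caspases and their nucleases were higher and 0 lower in labelled activated B than in labelled resting B, and 1 was higher and 4 lower in labelled activated T than in labelled resting T. The executioner caspase gene Casp6 changed by 2.48 and -1.32, cytochrome c (Cycs) by 1.66 and -1.13, and Aifm1, a flavoprotein of the mitochondrion, by 0.90 and -0.78. Apaf1, the scaffold of the apoptosome, rose by 1.09 in labelled activated B, and Casp9, the initiator it recruits, was higher by 0.44 in labelled activated T. The list median was 0.111 in labelled B and -0.124 in labelled T. Of 7 inhibitors of apoptosis and their antagonists, 2 were higher and 4 lower in labelled B, and 1 was higher and 3 lower in labelled T. Birc5, which encodes survivin and also serves in mitosis, changed by 3.55 and -2.67, and Htra2, an antagonist, by 0.67 and -0.56. Birc2 was lower in the activated arrays of both labels (-0.65 and -1.50), Birc6 was lower in labelled activated B (-0.48) and Birc3 higher in labelled activated T (0.41).

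Upstream, p53 is known to raise Bbc3 and Pmaip1, neither of which was called between activated and resting arrays. Of 11 other p53 target genes measured, 9 were higher and 2 lower in labelled activated B than in labelled resting B (median 1.158, against -0.016 for all genes). In labelled activated T, 2 were higher and 7 lower than in labelled resting T (median -0.720, against 0.017). The shares of all genes called were 19.7% higher and 16.7% lower in labelled B, and 15.9% and 17.8% in labelled T. These counts include Perp, below background in 3 of the groups, and Eda2r, which was below background in all 4 and was counted as higher in labelled B. Perp was also the middle gene of the list in both comparisons. The medians of 1.158 and -0.720 are thus its fitted changes and are not exact sizes. Phlda3, which holds back AKT, and the RNA-binding gene Zmat3 led in labelled B with 1.88 and 1.62. Ccng1, a cyclin of the p53 response, changed by 1.41 and -1.52, and the stress gene Sesn2 by 1.39 and -1.77. Tnfrsf10b, a death receptor for TRAIL, averaged 4.56 in labelled activated T, below background, and 7.06 in labelled resting T, so that its fitted change of -2.50 is not an exact size. Sesn1, which is also a target of FOXO factors, changed by 2.27 in labelled T. Among 16 regulators of BCL2 family proteins, 9 were higher and 3 lower in labelled B, and 3 were higher and 10 lower in labelled T. The same shares of all genes apply, and the medians were 0.370 and -0.425, against -0.016 and 0.017 for all genes. The kinases Pim1 and Pim2 changed by 1.31 and 1.42 in labelled B and by -2.43 and -2.11 in labelled T. Vdac1, a channel of the outer membrane that BCL2 proteins bind, was higher by 1.60 in labelled B. Tsc22d3, a gene induced by glucocorticoids and FOXO factors, had -2.66 and 3.41, and Fbxw7, which marks MCL1 for degradation, had -2.65 in labelled T. Each of the changes named for these 4 lists passed the test (adjusted p = 0.0131 or lower from limma). Beside these changes, the dividing cell markers were higher in labelled activated B than in labelled resting B and lower in labelled activated T than in labelled resting T, and their part was not tested.

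No list was tested as a whole, and the shares of all genes called are given beside the counts. In the interaction (21.9% of all genes higher and 20.9% lower), 5 of the 13 further family genes were higher and 1 lower, with 4 and 1 of the 10 apoptosome and caspase genes, 3 and 3 of the 7 inhibitors and antagonists, 9 and 2 of the 11 p53 targets and 10 and 3 of the 16 regulators. Between labelled activated B and labelled activated T (21.8% and 18.9%) these counts were 2 and 3, 5 and 1, 1 and 4, 8 and 1, and 9 and 2 in the same order of lists. Between labelled resting B and labelled resting T (16.1% and 19.0%) they were 0 and 4, 1 and 5, 0 and 4, 2 and 8, and 3 and 8. Each of these comparisons shares arrays with the others. Labelled resting B against labelled activated T (9.68% and 8.82%) gave 1 and 4, 1 and 1, 0 and 2, 4 and 0, and 3 and 1. Labelled activated B against labelled resting T (13.0% and 9.93%) gave 0 and 3, 4 and 2, 1 and 3, 6 and 1, and 3 and 3.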

How the data were processed

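The authors extracted total RNA with Trizol, labelled it with a kit for whole transcripts and hybridised it to Affymetrix mouse gene arrays. The deposited values are on the log2 scale, per probe set. RMA is named for them in the processing notes of the submitters, without a version. This method corrects for background, equalises the arrays at the level of probes and summarises each probe set, and the summarised values still differed in their medians (5.50 to 5.68). On such values a common shift of the transcriptome is lost, low values are compressed, and no read depth exists, so that the number of arrays limits the precision.

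Of 34760 probe sets, 21640 had 1 gene symbol, 1321 had several and 11799 had none here. Where a gene had more than 1 probe set (954 genes), the brightest by mean over 12 arrays was used. Groups were taken from the labels. Models were fitted with limma 3.58.1 under R 4.3.3 (lmFit, contrasts.fit and eBayes), with a mean per labelled group (8 residual and 7.8 prior degrees of freedom). Benjamini-Hochberg adjustment was made over all 19937 genes, and a gene was called at an adjusted p under 0.05. There were 6 comparisons of 2 groups and the interaction, which is activated minus resting in labelled B less that in labelled T. An exact permutation test of 3 against 3 arrays cannot go below p = 0.1, so no such test was used. Python 3.11.15 was used for tables (pandas 2.3.3 with numpy 2.4.6) and for plots (matplotlib 3.10.9).

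The members, marker genes and gene lists were chosen with earlier results of these data known. All measured members are named. Of the other lists, counts are given for all comparisons, and the genes with the 4 largest changes among those called are named for activated against resting arrays. Promoters came from RefSeq (GRCm38.p6), with windows for 8 members, matched by symbol. Genes on chromosome 18, and with them Pmaip1, were left out of the member windows.

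Both labelled B groups have replicates 1 to 3, and both labelled T groups have 4 to 6. To check for pairing, deviations from group means were correlated between arrays of equal number over 12170 genes. The r values were -0.06, 0.06 and 0.25 in labelled B and 0.22, 0.16 and 0.23 in labelled T, so that over all genes each pair in labelled T, but not in labelled B, was above 0.1. Much of this rested on 4 sex-linked genes, without which r was -0.12, -0.02 and -0.00 in labelled B and 0.02, 0.09 and 0.19 in labelled T. In those genes arrays of equal number matched in sex. Arrays of unequal number reached r = 0.15 in labelled B and 0.01 in labelled T over all genes. Without the sex-linked genes they reached 0.08 in labelled B and 0.14 in labelled T, above some pairs of equal number. The pairing is thus at most a weak hint from the data and is not given by the labels. At most 0.08% of genes had identical values on 2 arrays. Alternatives concerned scaling (median or 75th percentile centring, quantile normalization), genes (a filter on dim genes, averaged or separate probe sets), the model (only the arrays compared, an intensity trend, array weights, the replicate block) and each array left out.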

Additional observations from a re-analysis of the deposited data

Results flagged for a closer look

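Activated minus resting differed between the labelled B and the labelled T arrays for 3 of 9 members, by the interaction term in limma. The same term called 21.9% of all genes higher and 20.9% lower, so a call of this kind is not particular to the family. For Bcl2l1 the difference between the changes was 3.16 on the log2 scale, for Bak1 it was 2.20, and for Mcl1 it was -1.25 (adjusted p = 2.5e-09, 2.5e-09 and 1.7e-07). Beside this, the mean of 7 dividing cell markers was 9.99 to 10.03 for labelled activated B and 5.73 to 6.17 for labelled resting B, and 5.47 to 6.13 for labelled activated T and 9.53 to 9.61 for labelled resting T. The part of dividing cells in the 3 differences was not tested.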

How the results depend on the processing

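Of 585 values under other settings, 557 kept their direction and their side of the threshold, 7 lost and 13 gained a call, and 8 changed sign; of 432 values with an array left out these numbers were 400, 10, 8 and 14. No sign changed in a difference that was called. With centring on the 75th percentile the changed signs were Bbc3 at -0.095 and Pmaip1 at -0.018 (activated B less resting B), Bbc3 at 0.032 (resting B less resting T), and the interactions of Bcl2 at -0.076 and Bad at -0.082. With quantile normalization they were Pmaip1 at -0.0006 (activated B less resting B) and the interaction of Bcl2 at -0.17, and with median centring the interaction of Bid at 0.014. With the filter on dim genes, where fewer genes were tested, 5 members were called in the interaction, against 3. The calls over all genes were then 7827 of 12170, against 8518 of 19937, so the share of all genes called rose as well.

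Leaving out an array gave 3 to 6 members called for activated B against resting T, with 3 without activated B replicate 1. Calls over all 19937 genes fell as well, from 4579 with every array to 3876 with that array left out. The ranges were -0.083 to 0.054 (Bid) and -0.022 to 0.21 (Bad) for the interaction, -0.092 to 0.061 for Bbc3 (activated B less resting B), -0.082 to 0.071 for Bbc3 and -0.029 to 0.16 for Bad (resting B less resting T), -0.086 to 0.054 for Bak1 (resting B less activated T) and -0.088 to 0.030 for Bbc3 (activated B less resting T).

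The replicate block could be fitted for the comparisons within a labelled cell type and the interaction. With it, 4 members were called in labelled B, 5 in labelled T and 3 in the interaction, and no call of a member changed. Over all 19937 genes the calls were 7119, 6559 and 8416 in the same order.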
